A study of Rattus norvegicus with 4 samples.

Results

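The AP-1 and EGR immediate early genes Fos, Fosb, Fosl2, Jun, Junb, Jund, Egr1, Egr2, Ier2 and Dusp1 were examined in NR8383, a line of rat alveolar macrophages that was started from lung lavage fluid. They were chosen by symbol, through the RefSeq accession of each array probe, and all 10 had a probe among 16581 named genes. The cells, at 20 passages, spent 4 h with the pristine single-walled carbon nanotubes named NRCWE055, given at a dose of 11 cm2/cm2. By their titles and treatment entries, the 4 samples, called biological replicates in the study design, formed 1 group of 1 cell line. Each was measured on 1 array. The unexposed controls of the design were not analysed here, and none of the values is a response to the nanotubes.

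AP-1 is a dimer of basic leucine zipper proteins in which a FOS protein pairs with a JUN protein, or JUN proteins pair with each other. EGR proteins are zinc finger factors that bind GC-rich sites. Genes of both families are transcribed within minutes of a stimulus, through MAP kinases that act on SRF with its ternary complex factors and on CREB, and their short-lived transcripts decline soon afterwards. In macrophages they are known to follow contact with microbial products, particles and growth factors.

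A level here is the log2 processed signal of a probe minus that array's 75th percentile, taken over the probes detected on all arrays. It is given as mean ± SD over arrays (n = 4) and describes 1 probe, so levels are not ranked between genes. Detection on an array means that over 0.5 of the probe's usable spots carried the scanner software's flag for a signal well above background.

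Short upstream stretches of 4 of these genes are shown. Each holds the full CRE, the CREB site with the letters TGACGTCA, or a CArG box, the SRF site. The 4 genes were picked by name, and Egr1, which also holds CArG boxes, is not shown. The stretches come from RefSeq windows of build GRCr8 that end at the annotated start site. They are written on the strand of the gene with the matched letters in capitals. Their last bases lie 91 (Dusp1), 188 (Jund), 33 (Ier2) and 49 (Egr2) bases upstream of that site. Windows were found for 8 of the 10 genes, all but Fos and Jun. The Dusp1 stretch is chr10:17184703-17184762 on the plus strand, the Jund stretch chr16:18769959-18770018 on the minus strand, the Ier2 stretch chr19:40399281-40399340 on the plus strand and the Egr2 stretch chr20:21054490-21054549 on the minus strand.
Dusp1: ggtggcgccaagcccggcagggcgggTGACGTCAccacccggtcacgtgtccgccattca
Jund: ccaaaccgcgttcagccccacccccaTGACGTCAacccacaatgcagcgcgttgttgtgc
Ier2: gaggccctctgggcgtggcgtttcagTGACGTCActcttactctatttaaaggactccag
Egr2: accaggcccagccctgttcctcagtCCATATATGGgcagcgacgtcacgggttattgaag

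In the 250 bases upstream of the start site, the full CRE lay in 3 of 8 windows, those of Jund, Ier2 and Dusp1, against 1.59% of 33469 windows of all genes. Its first base was 221 bases upstream in Jund, 66 in Ier2 and 124 in Dusp1. A CArG box lay in 2 of 8 windows against 501 of the 33469. Egr1 held 2 of them, starting 105 and 83 bases upstream, and Egr2 held 1, starting 83 bases upstream. The CRE core TGACG, which every full CRE contains, lay in 6 of 8 windows against 18.2% of all, the windows without it being those of Fosb and Fosl2. The EGR letters GCGNGGGCG lay in the windows of Fosl2 and Jund against 4.29% of all, at 3 places in Jund, and the GC box GGGCGG, which shares letters with some of them, lay in 4 windows against 30.5%. The TATA letters TATAAA lay in 2 windows against 12.9% and CCAAT in 4 against 34.0%, while GGAA, the ETS core, lay in 7 against 93.2%. The AP-1 letters TGANTCA (6.34% of all windows) and the NF-kB motif (435 of the 33469) were not among the letters of these 8 windows. All motifs were searched on both strands. A match is a description of letters, and no measurement here bears on the binding of a factor.

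All 10 genes were detected on all 4 arrays, as were all 16 of their probes. Over all named genes the share detected on all arrays was 52.4%, and over all probes it was 39.1%. The 10 genes were chosen with earlier results of these data known, so the difference from these shares is not a result. Their relatives Fosl1, Egr3 and Egr4, counted in other lists, were detected on no array. Every one of the 35 spots of the 16 probes was flagged well above background on each array. Signal over background was nevertheless thin for Fos, Egr1 and Dusp1. Their signals were 2.15 to 3.89, 2.37 to 5.16 and 1.97 to 3.77 times the lowest well-above-background signal of the same array. For Dusp1 on replicate 1 the signal of 31.2 fell just under that array's brightest negative control spot, at 31.5. The other probes stood at least 4.58 times above that lowest signal on each array.

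**Figure D1:**
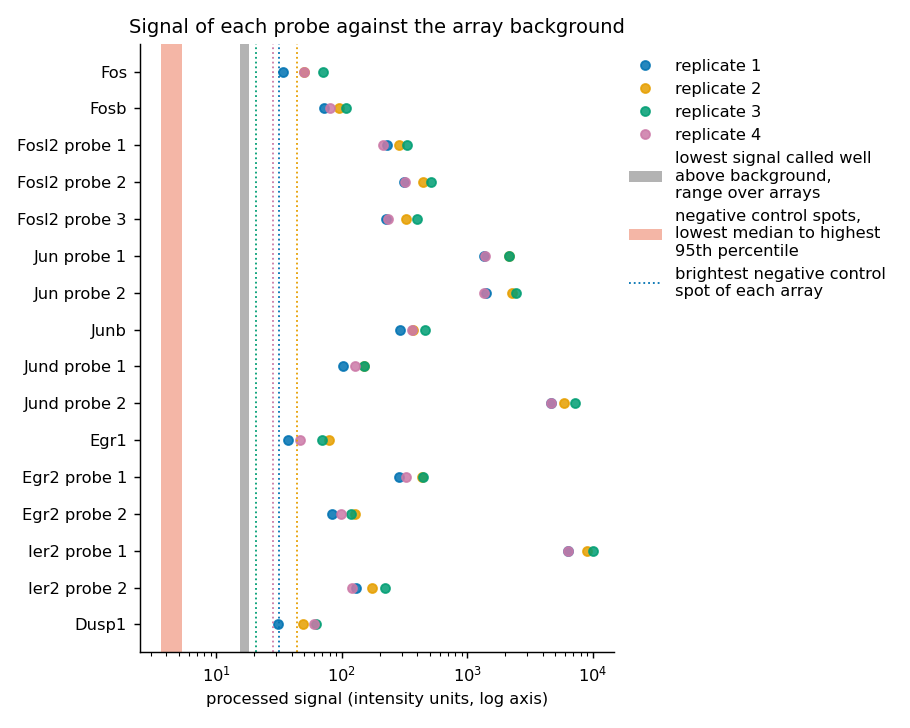
Processed signal of each probe on the 4 arrays (intensity units, log axis), with the range of the lowest signals called well above background in grey, the range from the lowest median to the highest 95th percentile of 308 negative control spots per array in red, and the brightest negative control spot of each array as a dotted line in that array's colour. Fos, Egr1 and Dusp1 lie nearest the background, between 31.2 and 79.5, and all probes lie right of the grey band.

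The arrays differed in brightness, and the scaling shifts all probes of an array by the same amount. The 75th percentile signal was 1756 on replicate 1, 2631 on replicate 2, 2861 on replicate 3 and 1873 on replicate 4, so raw signals of most probes were higher on replicates 2 and 3. No spot was saturated, and no spot had the same value on any 2 arrays. Of 11 measured macrophage markers, 10 were detected on all arrays (all but Cybb), with a summed signal of 331473 to 403036 per array. Of 36 markers of lung epithelium, fibroblasts, endothelium, T cells, B cells, neutrophils and mast cells, 9 were detected on all arrays (25.0%). These were 3 of 5 endothelial (Pecam1, Cdh5 and Vwf), 3 of 5 T cell (Cd3d, Cd4 and Lck), 2 of 5 neutrophil (S100a8 and Camp) and 1 of 3 B cell markers (Pax5), and none of 8 epithelial, 6 fibroblast or 4 mast cell markers. Camp read 2437 to 3776 and Pecam1 996 to 1405, each on 1 probe. Vwf averaged 751 to 1124 over 2 probes that lay 6.40 apart on the log2 scale, so that mean describes neither. The part of these markers in the levels given here was not tested.

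The FOS subunits carry the acidic leucine zipper of the AP-1 dimer. Fos, the founding member, was measured by a probe printed 2 times per array (A_64_P131051), with signals of 34.0, 49.9, 70.3 and 50.1 on replicates 1 to 4. Scaled, Fos was at -5.69, -5.72, -5.35 and -5.22, a mean of -5.50 ± 0.25. Replicates 3 and 4 were the higher ones, and the arrays spanned 1.41-fold. The spots of a single array differed by as much, since on replicate 3 they read 56.5 and 87.5.

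Fosb, whose splice form lacking the transactivation domain is known as ΔFosB, gave signals of 72.4, 95.0, 108 and 81.1 on its single probe (A_44_P1085907). Its level was -4.66 ± 0.12, highest on replicate 4 and lowest on replicate 2. From median signals with normexp background correction its SD was 0.21.

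Fosl2 encodes FRA-2, a FOS protein without the strong transactivation domain of FOS. Its 3 probes read 229, 286, 329.5 and 212 (A_44_P1082224), 313, 442, 512 and 319.6 (A_44_P1152997) and 223, 323, 396 and 234 (A_64_P065063) on replicates 1 to 4. Their levels were -3.10 ± 0.11, -2.52 ± 0.05 and -2.96 ± 0.08, so the probes lay within 0.58 of each other. Averaged over probes, Fosl2 was at -2.86 ± 0.06, the smallest SD of the 10 gene levels. That SD is of a mean over 3 probes, whereas 5 of the 10 genes had 1 probe.

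The JUN subunits form dimers with FOS proteins or among themselves. Jun read 1364, 2127, 2136 and 1369 on a probe printed 10 times per array (A_42_P741027) and 1419, 2274, 2454 and 1355 on a second probe (A_64_P053353). The probes lay at -0.39 ± 0.06 and -0.30 ± 0.12, only 0.08 apart, and both were lowest on replicate 4. The gene level was -0.34 ± 0.08, and without replicate 4 the SD was 0.04.

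Junb, a JUN protein that activates simple AP-1 sites less than JUN does, read 289, 372, 463 and 361 on its single probe (A_43_P12125). Its level was -2.60, -2.82, -2.63 and -2.37 on replicates 1 to 4, a mean of -2.61 ± 0.18. Replicate 4 was the highest and replicate 2 the lowest, 1.37-fold apart, and without replicate 4 the SD was 0.12.

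Jund, the JUN protein known for steady expression in resting cells, was measured by probes that carried different RefSeq accessions and disagreed by 5.40 on the log2 scale. The probe of NM_001286966 (A_64_P119675) read 4669, 5938, 7216 and 4623, a level of 1.31 ± 0.10. The probe of NM_138875 (A_43_P15517) read 102, 149, 151 and 127, a level of -4.09 ± 0.15. Their mean of -1.39 ± 0.09 is therefore a level that neither probe showed. The bright probe was highest on replicate 1 and the dim one on replicate 4.

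Among the EGR genes, Egr1, the zinc finger factor also called Krox-24 or NGFI-A, read 37.4, 79.5, 69.1 and 46.0 on its single probe (A_64_P082693). Its level was -5.55, -5.05, -5.37 and -5.35, a mean of -5.33 ± 0.21. Replicate 2 was the highest and replicate 1 the lowest, 1.42-fold apart. Without replicate 2 the SD was 0.11.

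Egr2, also called Krox20, read 283, 434, 443 and 323 on the brighter of its probes (A_42_P473594) and 82.8, 127, 117 and 98.7 on the other (A_44_P1164501). The levels were -2.62 ± 0.06 and -4.41 ± 0.15, 1.79 apart. Both probes were highest on replicate 4 and lowest on replicate 3. Averaged, Egr2 was at -3.51 ± 0.11, and without replicate 3 the SD was 0.07.

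Ier2 encodes a small nuclear protein induced together with the AP-1 genes by growth factors. Its probe printed 10 times per array (A_42_P540950) read 6321, 8914, 9992 and 6381, a level of 1.80 ± 0.04, within 1.06-fold over the arrays. Its other probe (A_44_P1158781) read 129, 174, 222 and 119.5, a level of -3.84 ± 0.13. The probes disagreed by 5.63, so the gene mean of -1.02 ± 0.08 again describes neither. Jund and Ier2 were not alone in this: of 1712 named genes with several detected probes, 10.6% had probes over 5 apart, and the median span was 1.94.

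Dusp1 encodes MKP-1, the phosphatase that switches off p38 and JNK and is itself induced by them. It read 31.2, 49.1, 62.5 and 59.6 on its single probe (A_43_P12927). Scaled, Dusp1 was at -5.82, -5.74, -5.52 and -4.97, a mean of -5.51 ± 0.38. Replicate 4 stood highest, 1.79-fold above replicate 1, and Dusp1 was the 1 gene of the 10 to span over 1.5-fold, as 7.53% of all genes with a level did. Its SD was 0.15 without replicate 4, and 0.24 when normexp correction was run on median signals.

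**Figure D2:**
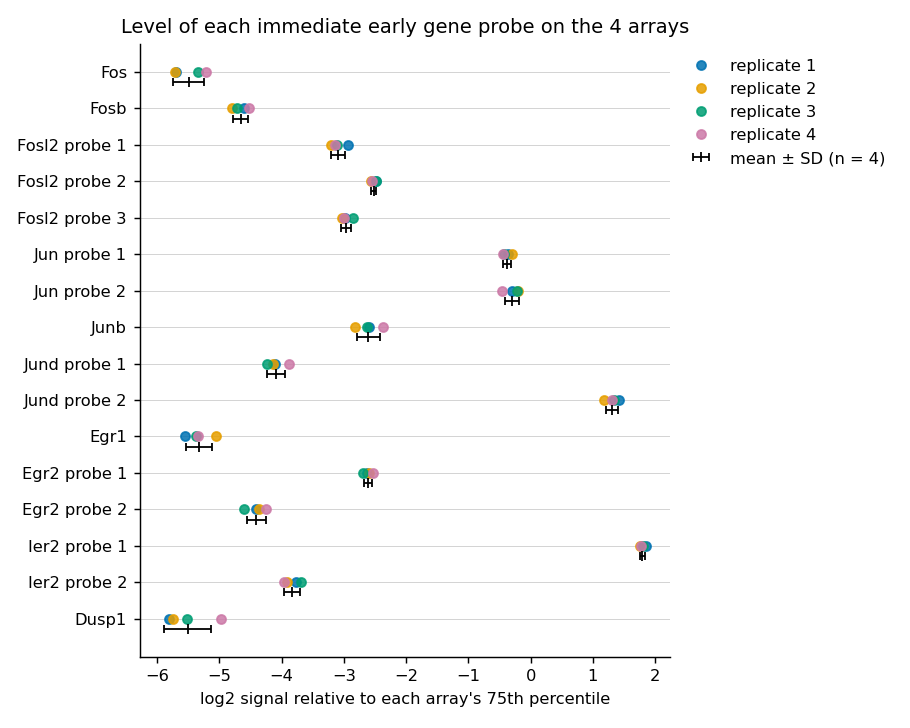
Level of each probe on the 4 arrays (log2, relative to the 75th percentile of the array), 1 row per probe in the order of the text except that the dim Jund probe is probe 1, with the mean ± SD (n = 4) drawn below the points. The arrays lie close together for Ier2 probe 1 (SD 0.04) and furthest apart for Dusp1 (SD 0.38), and the probes of Jund and of Ier2 lie over 5 apart.

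The repeated spots of Jun and Ier2 allowed the spread within an array to be set beside that between arrays. For the Jun probe the 10 spots of an array had an SD of 0.08 to 0.18, whereas the 4 array means had an SD of 0.06. For the Ier2 probe the corresponding values were 0.07 to 0.09 and 0.04, over 9 or 10 usable spots per array. The mean of an array's spots had a standard error of 0.03 to 0.06 for Jun and 0.02 to 0.03 for Ier2. The SD between array means lay above that error for both probes. However, the same printed position held the lowest spot on all 4 arrays, for Jun and for Ier2 alike. For Ier2 that spot was marked as an outlier on replicate 1 and left out. Differences between positions that the arrays share thus enter the spot SDs and standard errors, which are not the error of a difference between arrays. The lowest Jun spot, at 992 on replicate 4, was not marked as an outlier, and the median there was 1403. For Fos, with 2 spots per array, the spot SD ranged from 0.08 to 0.45 against 0.25 between arrays.

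**Figure D3:**
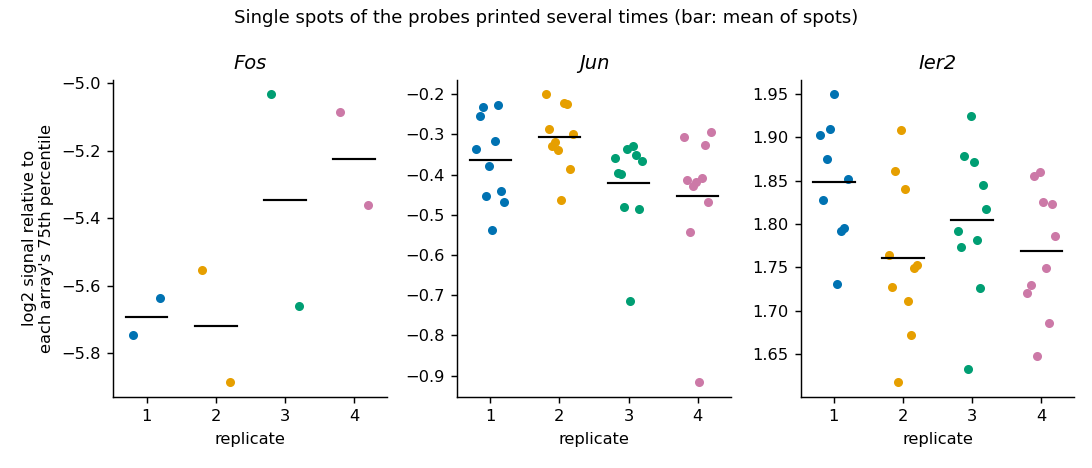
Level of each usable spot (log2, relative to the 75th percentile of the array) of the Fos probe printed 2 times and of the Jun and Ier2 probes printed 10 times per array, by replicate, each panel on its own scale, with a bar at the mean of the spots. The spots of 1 array overlap those of the others for Jun and Ier2, and the Fos spots of replicate 3 stand far apart.

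The scanner software also gives an error for each spot, the only error figure here for probes without repeats. This error was 10.0% to 11.0% of the signal for all probes but those of Fos, Egr1 and Dusp1. On replicate 1 it rose to 14.3% for Egr1, 16.6% for Fos and 18.1% for Dusp1. It is the software's estimate and not a spread measured between spots. For the probes with 10 spots it was 10.0% on every array. The SD of those spots was 5.49% to 11.2% of their mean for Jun and 4.75% to 6.17% for Ier2. The SD over arrays exceeded the mean spot error, on the log2 scale, for 5 of the 16 probes, against 29.0% of all detected probes. These were the probes of Fos (0.25 against 0.19), Junb (0.18 against 0.14), Egr1 (0.21 against 0.18), Dusp1 (0.38 against 0.20) and the dim probe of Jund, where both were 0.15. For the other 11 probes the SD was no larger than that error. The range from the lowest to the highest array exceeded it for most of them, as for the dim Egr2 probe (0.36 against 0.15). A range is always wider than the SD of the same values, so this excess does not show a spread beyond the error. For the Jun and Ier2 probes with 10 spots, the error of a single spot overstates that of the mean. The Fos probe was averaged too, over 2 spots, so its SD is likewise set against the error of a single spot.

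The median SD of the 10 genes was 0.113, equal to 1.08-fold, against 0.0926 over 8685 genes with a level, and 6 of the 10 lay above that median. The SD moved with the level, over all probes as well as among these. With all detected probes cut by level into 4 bins of equal number, the median SD was 0.199 in the dimmest bin and 0.119, 0.0842 and 0.0731 in the next ones. Of the 16 probes, 4 lay in the dimmest bin (Fos, Fosb, Egr1 and Dusp1), 8 in the next and 2 in each of the brighter ones. Against the median of their own bin, 9 of the 16 had a larger SD. The Dusp1 probe had a larger SD than 89.8% of the probes in its bin and the Junb probe than 79.2%, while the Fosl2 probe A_44_P1152997 had a larger SD than 5.84% and Fosb than 19.1%. No gene of the 10 spanned over 2-fold, as 1.11% of all genes with a level did.

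**Figure D4:**
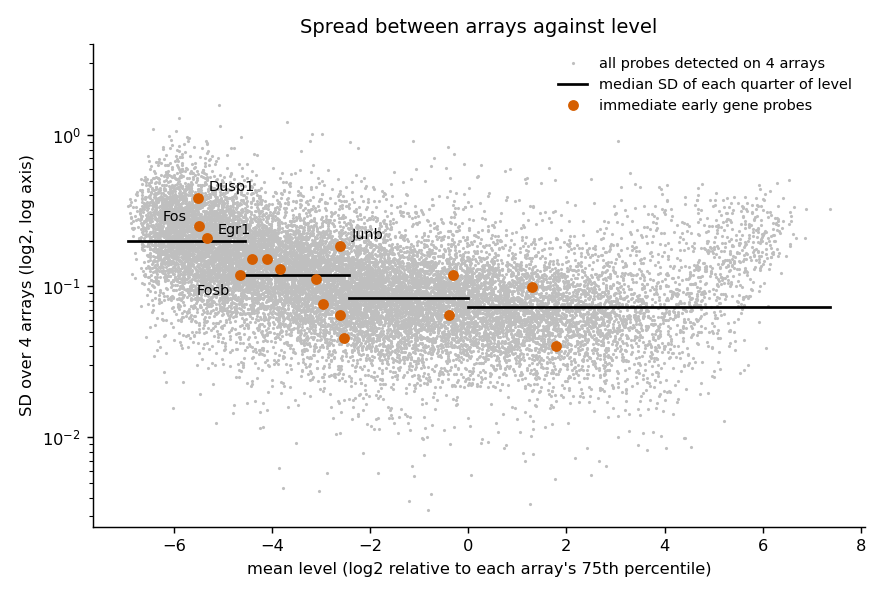
SD over the 4 arrays (log2, log axis) against mean level (log2, relative to the 75th percentile of the array) for 17807 probes detected on all arrays, in grey, and for the 16 immediate early gene probes, in orange, with a black bar at the median SD of each of 4 bins of level. The orange points follow the fall of the grey cloud from 0.199 in the dimmest bin to 0.0731 in the brightest, and Dusp1 and Junb lie above the bar of their bin.

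Replicate 4 was the highest array for 6 of the 10 genes (Fos, Fosb, Junb, Jund, Egr2 and Dusp1), whereas 29.4% of all genes with a level were highest there. Replicate 2 was the lowest for 5 of the 10 (Fos, Fosb, Fosl2, Junb and Jund), against 24.9% of all genes. The median deviation of the 10 genes from their own means was 0.11 on replicate 4 and -0.08 on replicate 2, and over all genes it was 0.01 and -0.01. The count on replicate 4 was also 6 under each other scaling and background correction run, and 5 when the brightest probe stood for each gene, because the bright Jund probe was highest on replicate 1. Jun and Ier2 went the other way and were lowest on replicate 4. Unscaled, no probe of the 6 genes was brightest on replicate 4, where Junb read 361 against 463 on replicate 3. Their place on replicate 4 thus appeared only after scaling, and every alternative run also scaled the arrays. Arrays and cultures cannot be told apart with 1 array per culture, and the spread of single probes given above applies to each of these genes.

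Of the other genes of the pathway, 71 of 97 measured members of 7 lists were detected on all arrays (73.2%), against 52.4% of named genes. The lists too were chosen with earlier results of these data known. Among other bZIP partners of AP-1, 9 of 12 were detected, with a median SD of 0.0907. Atf3, a stress-induced partner of JUN, was at -0.04 ± 0.11, and Atf7 had the largest SD of the list at -5.74 ± 0.23. Fosl1, which encodes FRA-1, and Batf, a partner of JUN in lymphocytes and dendritic cells, reached no array's well-above-background call. The Fosl1 signal was 4.26 to 4.97.

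Of the other EGR genes and their corepressors, 2 of 4 were detected, the corepressors Nab1 at -3.93 ± 0.10 and Nab2 at -2.55 ± 0.17. The detected probes of each disagreed, by 5.31 for Nab1 and by 7.35 for Nab2. Of 4 Nab1 probes 2 were detected, and with no filter on dim probes the Nab1 level was -5.62. Egr3 and Egr4 were detected on no array. Egr3 read 13.9 to 17.8 and, with the looser flag for a signal above background, was positive on all 4 arrays.

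In the list of other immediate early genes 18 of 27 were detected, and their median SD was 0.0784. The orphan nuclear receptor gene Nr4a1 was at -3.24 ± 0.10, and Nr4a2 had the largest SD of the list at -5.47 ± 0.29. Of 2 Nr4a2 probes 1 was detected, and with no filter on dim probes the Nr4a2 level was -6.21. Ier3 was at -0.84 ± 0.06 and the zinc finger factor gene Klf6 at -0.76 ± 0.04. Zfp36, which encodes tristetraprolin, a protein that destabilises cytokine transcripts, was detected on 3 arrays with signals of 17.2 to 24.1, and not on replicate 2. The antiproliferative gene Btg2 was not well above background on any array, at 3.46 to 3.91.

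Upstream of these genes, all 7 measured members of the SRF, ternary complex factor and CREB list were detected. Srf was at 1.58 ± 0.08, Elk1, a ternary complex factor, at -2.83 ± 0.09, and Creb1, with the largest SD of the list, at -4.40 ± 0.17. The MAP kinase cascade was detected for 21 of 24 measured members. The kinase gene Mapk3 was at 4.26 ± 0.25, the p38 gene Mapk14 at 2.53 ± 0.06 and the JNK gene Mapk8 at -5.26 ± 0.11. Of 3 Mapk8 probes 1 was detected. Map2k7, which activates JNK, had the largest SD of that list, at -5.95 ± 0.45, and its arrays spanned 1.99-fold. That span rests on dim signals, of 25.85, 51.36, 61.97 and 20.36 on replicates 1 to 4. On replicates 1 and 4 the Map2k7 signal lay under the brightest negative control spot of the same array. The kinase genes Mapk10, Mapk11 and Mapk12 were detected on no array.

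Other MAP kinase phosphatases, the relatives of Dusp1, were detected for 6 of 9 members. Dusp6, which encodes a cytoplasmic phosphatase, was at 0.70 ± 0.03, within 1.04-fold over the arrays. Dusp2 was at -1.63 ± 0.06 and Dusp5 at -1.34 ± 0.13, and both encode nuclear phosphatases. Dusp10 had the largest SD of the list, at -4.68 ± 0.30. Scaled, its replicates 1 and 4 (-4.41 and -4.43) lay above replicates 2 and 3 (-4.98 and -4.91). Its unscaled signals were 82.5, 83.4, 95.3 and 86.7 on replicates 1 to 4, so that order appeared only after scaling. Dusp1 did not share that order, since its replicates 1 and 2 were the lowest.

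**Figure D5:**
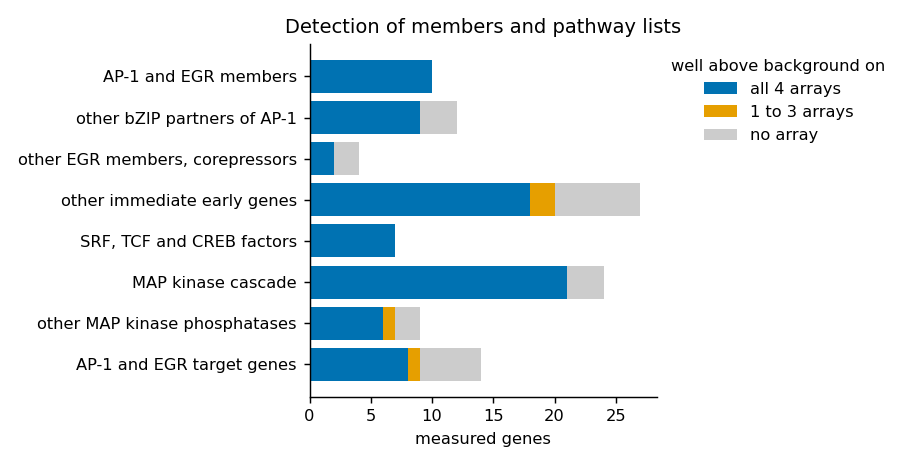
Number of measured genes well above background on all 4, on 1 to 3 or on no array, for the 10 immediate early genes and the 7 pathway lists. The 10 genes and the 7 measured SRF, ternary complex factor and CREB genes are detected throughout, and the EGR members and corepressors only for 2 of 4.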

How the data were processed

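RNA of 4 exposed cultures was measured on 1-colour Agilent arrays (Cy3), all on 1 slide in 1 scan, which leaves no batch to test. Per the file headers, Agilent Feature Extraction 11.0.1.1 wrote the deposited tables of spots. The processed signal is an intensity from which the authors' scanner software had removed background and spatial trend, with no normalization between arrays. Samples were grouped by title. In replicates 2, 3 and 4 the source name gives a nanotube number other than that of the title, a different one in each. The titles and treatment entries were followed, and the 1 group rests on them.

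Control spots were left out, as were 427 to 714 outlier spots per array. The log2 processed signal was averaged over a probe's spots. Because 40.8% to 43.7% of probes were detected per array, each array's 75th percentile was taken over the 17807 probes detected on all arrays. A gene's level is the mean of its probes detected on all arrays, and a gene was detected on an array if any of its probes was. By that rule 8687 genes were detected on all arrays, and 8685 had a level from 1 probe set. Probes were named through RefSeq accessions without version, in a rat table of assembly GRCr8, which named 21109 of 45598 probes. The array was designed on another build.

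With 1 group there was no test between groups. The members, lists and named genes were chosen with earlier results of these data known. Named genes were all 10 members, 25 list genes fixed by name and the gene of largest SD in each list. One of the list genes is not reported here. Python 3.11.15 was used, with limma 3.58.1 in R 4.3.3 for normexp with an offset of 50. The calculation was tested on simulated data. Alternatives were normexp on median signals, median centring, the 75th percentile of all probes, quantile normalization, a looser detection flag, no filter on dim probes, the brightest probe for each gene, outlier spots kept and leaving out each replicate.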

Additional observations from a re-analysis of the deposited data

How the results depend on the processing

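The count of 10 of 10 detected genes held with the looser flag, with outlier spots kept and without each replicate in turn. Counts in the 7 pathway lists stayed within 1.5 times. The gap between the median SD of the 10 genes and that of all genes with a level depended on the setting. It was 0.0930 for both with quantile normalization, and 0.110 against 0.108 with the looser flag. With normexp correction it was 0.143 against 0.0988, and without replicate 1 it was 0.135 against 0.0824. Without replicate 4 it was 0.0948 against 0.0797, and with no filter on dim probes 0.113 against 0.244. Median centring raised the levels of the 10 genes by 2.43 and the 75th percentile of all probes by 3.61, both with an equal shift of the median over all genes. The looser flag raised the 10 levels by 0.78, but lowered Nab1 to -4.84 and Mapk8 to -5.70. Normexp correction raised the 10 levels by 0.10 to 1.19, against a median of 0.20 over all genes. Using the brightest probe moved Fosl2, Jund, Egr2 and Ier2 by more than their SD, by up to 2.82. Quantile normalization, no filter on dim probes, outlier spots kept and leaving out single replicates moved no member's level by its SD. Among the 10 genes, signal over background limits Fos, Egr1 and Dusp1 most, and the number of arrays, 4, limits every value. No paired analysis was possible because there was only 1 group.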

Other observations

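Known target genes of AP-1 and EGR factors were detected on all arrays for 8 of 14 members (57.1%), near the 52.4% of all named genes. Their median SD was 0.0556 against 0.0926 over all genes with a level. The SD falls with the level, and these medians were not matched for it. Ccnd1, which encodes cyclin D1, was at 0.32 ± 0.02, within 1.03-fold over the arrays. Plaur, the urokinase receptor gene, was at -1.43 ± 0.06, and the protease inhibitor gene Timp1 had the largest SD of the list at -5.01 ± 0.11. Hbegf, which encodes a growth factor of the EGF family, was not well above background on any array.

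Over 44 series of levels (genes, single probes of genes with several, and named list genes), Dixon's ratio set no lone array apart at the 95% level, where chance alone gives about 2.2.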
